A study of Mus musculus with 6 samples.

Results

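The milk protein genes described here are 10 genes chosen by name, the 5 caseins (Csn1s1, Csn1s2a, Csn1s2b, Csn2 and Csn3), the 2 whey proteins (Lalba and Wap) and 3 genes of the milk fat globule and its surroundings (Btn1a1, Xdh and Glycam1). They are 10 of the 19505 genes that had a symbol on the array, and each was measured by 1 probe set, a group of short probes for 1 transcript. RNA was measured on 6 Affymetrix Clariom S Pico arrays from ER-negative luminal mammary cells, sorted by flow cytometry for high EpCAM and low CD49f without lineage markers or Sca1. The 3 Sox9 KO animals carried floxed Sox9 on both alleles and the MMTV-iCre transgene, and the study calls them Sox9-cKO. The 3 WT animals carried the same floxed alleles without Cre. All were females in diestrus, 8 to 12 weeks old, on a mixed C57BL/6J x FVB/NJ background, and each gland preparation was handled separately, which makes every replicate a different animal. Cre was driven by the MMTV promoter, which is active in mammary epithelium, and only in the Sox9 KO sort did the gate add ECFP, the reporter that Cre switches on. Genotype, Cre and the ECFP gate therefore cannot be told apart.

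ER-negative luminal cells include the progenitors of the alveolar cells that make milk. Caseins are the phosphoproteins that assemble into milk micelles, the whey proteins stay soluble, and fat leaves the cell as globules wrapped in plasma membrane. In the mouse, prolactin acting through JAK2 and STAT5 switches most of these genes on in pregnancy, and the transcription factors ELF5 and C/EBPbeta take part. Virgin animals already express some of them at a low level that follows the estrous cycle.

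Of the 10 milk protein genes, Csn1s1, Csn1s2a, Csn2 and Lalba had the widest spread among animals inside each genotype. The casein genes Csn1s1, Csn1s2a and Csn2 were below the background limit in WT replicate 1 and above it in the other 5 animals, and they were highest, or level with the highest, in Sox9 KO replicate 1. Lalba followed another order, with its lowest signal in that same Sox9 KO animal and its highest in WT replicate 3. Of the 10 genes, 0 passed the genotype test in limma, a linear model with moderated variances, at an adjusted p under 0.05 (Benjamini-Hochberg over 22206 probe sets), where 0.00901% of all probe sets tested passed. An unadjusted p under 0.05 was reached by 1 of the 10, Csn3, against 9.26% of all probe sets.

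As promoter sequence, the 250 bases before the transcription start are shown for Csn1s1, Csn2 and Lalba, and a stretch of 30 bases just after it for Csn1s2a. These were chosen because Csn1s1, Csn2 and Csn1s2a varied together across the animals, while Lalba ran in the reverse order inside Sox9 KO. Inside WT, Lalba had the same order of animals as these caseins. The sequences are those of RefSeq on GRCm38.p6, which gave a window around the start for 6 of the 10 genes (Csn1s1, Csn1s2a, Csn2, Lalba, Wap and Glycam1). They are printed 5′ to 3′ on the strand of the gene, and capitals mark the letters TTCNNNGAA, the palindrome that STAT5 is known to bind. Csn1s2a is shown by the stretch that holds this palindrome, because its 250 bases before the start do not. Wap had the order of Csn1s1, Csn2 and Csn1s2a inside each genotype and is not printed.
Csn1s1 (chr5:87665958-87666207, plus strand): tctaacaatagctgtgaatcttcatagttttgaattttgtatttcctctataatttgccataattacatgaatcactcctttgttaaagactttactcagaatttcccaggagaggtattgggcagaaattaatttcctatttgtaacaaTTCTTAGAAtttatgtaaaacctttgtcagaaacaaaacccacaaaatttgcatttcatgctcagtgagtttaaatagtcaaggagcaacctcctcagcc
Csn2 (chr5:87699426-87699675, minus strand): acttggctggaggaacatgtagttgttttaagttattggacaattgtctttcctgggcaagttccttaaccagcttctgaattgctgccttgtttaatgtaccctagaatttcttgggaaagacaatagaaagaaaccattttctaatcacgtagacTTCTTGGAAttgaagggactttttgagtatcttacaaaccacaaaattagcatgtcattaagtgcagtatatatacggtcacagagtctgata
Csn1s2a (chr5:87774460-87774489, plus strand): ttatagtgctTTCTTAGAAttacaatgact
Lalba (chr15:98482684-98482933, minus strand): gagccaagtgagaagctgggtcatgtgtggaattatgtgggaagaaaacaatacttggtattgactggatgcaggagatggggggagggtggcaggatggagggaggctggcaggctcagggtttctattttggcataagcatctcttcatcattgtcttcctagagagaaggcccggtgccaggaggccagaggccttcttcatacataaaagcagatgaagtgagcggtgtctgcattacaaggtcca

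The palindrome starts at position -100 in Csn1s1 and at position -93 in Csn2, counted from the first transcribed base as position 1, and at position 21, inside the transcript, in Csn1s2a. Glycam1 has it at position -145. Lalba and Wap do not hold these letters in their windows of 250 bases before and 50 bases after the start. The palindrome reads the same on both strands, and 8.3% of the 32851 RefSeq windows of this length hold it. Of the other motifs searched on both strands, GGAAGT, the ETS core that ELF5 binds, lies at position -107 in Wap and at -250 in Glycam1, and 23.8% of all windows hold it. The C/EBP letters TTNNGNAAT lie at position -136 in Csn1s2a and at -130 in Glycam1, and 11.5% of all windows hold them. These motifs are letter matches, and binding was not measured.

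The values are the log2 signals that the authors deposited, so a difference of 1 is a 2-fold difference in signal. A signal is called above background here where it exceeds the 95th percentile of the negative control probe sets of the same array, which lay between 7.75 and 8.15 on the Sox9 KO arrays and between 7.87 and 8.58 on the WT arrays. Between 20.8% and 29.6% of the probe sets tested were above it on an array, so it is a strict limit. Correlations between arrays were 0.967 to 0.988. Sox9 itself was 6.73, 7.84 and 7.51 in Sox9 KO cells, all below background by this limit, against 11.60, 11.54 and 11.47 in WT cells, and its fall of 4.18 (SE 0.27) passed the test (adjusted p 0.00867). Luminal markers were above background on every array, as were the ER-negative luminal markers except Elf5 and Csn2 in WT replicate 1, and all measured markers of endothelial, B, T and NK and myeloid cells were below it on every array. Of the 6 measured fibroblast markers 3 were below it on every array, while Dcn was above it at 10.56 in Sox9 KO replicate 3 and 9.60 in WT replicate 1, and Dpt (9.14) and Col1a1 (8.15) in Sox9 KO replicate 3. In RNA of sorted populations, fewer cells of a type and less RNA per cell cannot be told apart.

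**Figure D1:**
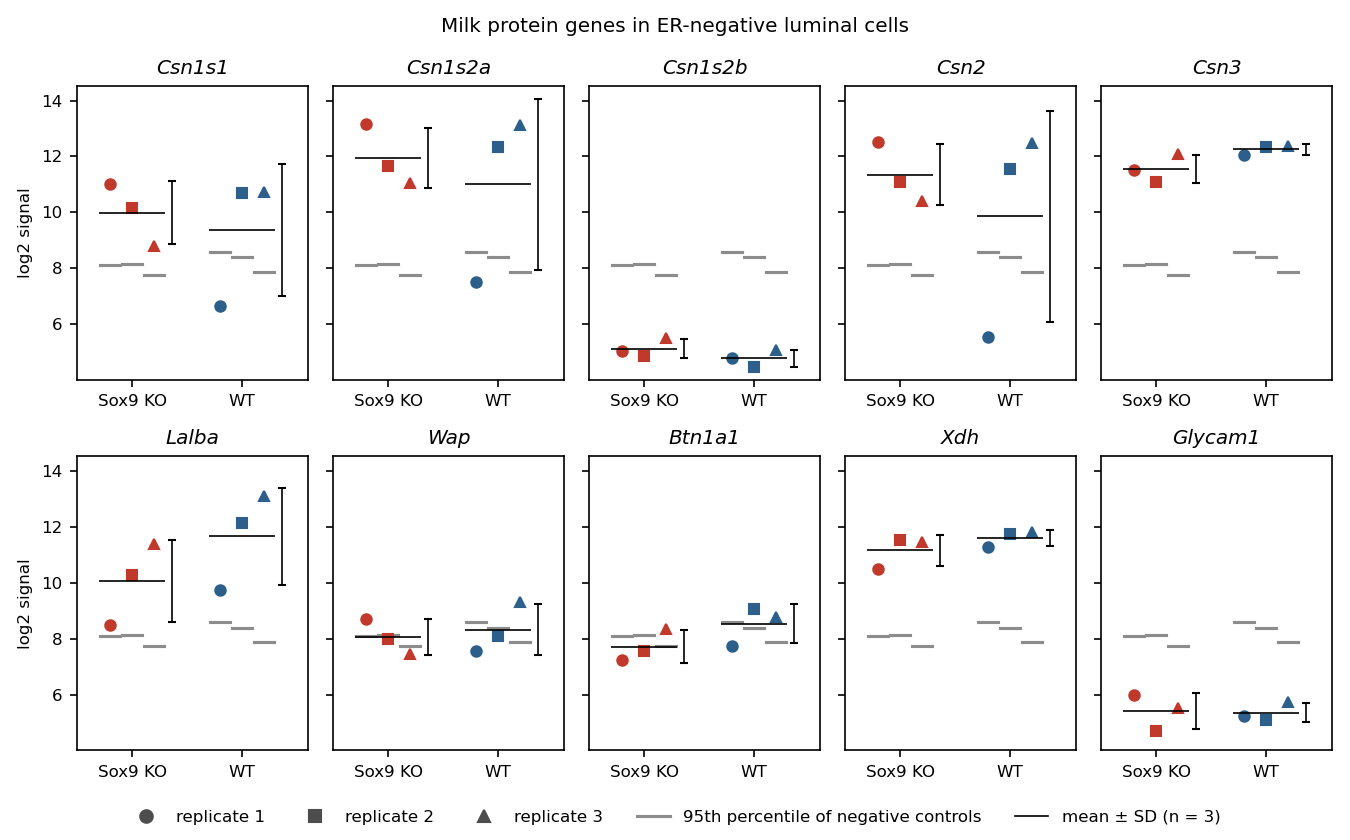
Log2 signal of each milk protein gene (y axis) on the 3 Sox9 KO and 3 WT arrays, with the marker shape giving the replicate, black lines the mean and SD, and grey ticks the 95th percentile of the negative controls of that array. Csn1s1, Csn1s2a and Csn2 lie below the grey tick in WT replicate 1 alone, at 6.63, 7.51 and 5.54, while Csn3 stays between 12.04 and 12.39 in WT.

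Csn2 encodes beta-casein, a main protein of the mouse milk micelle. Its log2 signal was 12.53, 11.10 and 10.42 in Sox9 KO replicates 1 to 3, against 5.54, 11.55 and 12.49 in WT replicates 1 to 3. WT replicate 1 was the lowest of the 6 and lay above only 59% of the negative controls of its array, and the other WT animals lay inside the Sox9 KO range, so the genotypes overlapped. WT replicate 3 was at least 15.0-fold higher than WT replicate 1, taking the background limit of replicate 1 as its level. The SD over the 3 WT animals was 3.77 on the log2 scale as deposited, which includes that value below background. With every signal below 8.58, the highest background limit of the 6 arrays, raised to it, a setting chosen after seeing the data, the SD was 2.04 and 2 of 22206 probe sets had a larger one in WT. The genotypes averaged 11.35 ± 1.08 in Sox9 KO and 9.86 ± 3.77 in WT (SD, n = 3 each), a difference of 1.49 (SE 1.63, 95% interval -2.30 to 5.28, adjusted p 0.824 in limma).

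Csn1s2a, an alpha-s2-like casein, had 13.15, 11.65 and 11.06 in Sox9 KO and 7.51, 12.35 and 13.13 in WT. The order of the animals was that of Csn2, with WT replicate 1 lowest and below background and Sox9 KO replicate 1 and WT replicate 3 level at the top. WT replicate 3 was at least 23.4-fold higher than WT replicate 1, and its SD in WT was 2.43 with signals raised to the background limit, with 0 probe sets above it. The difference between genotypes was 0.96 (SE 1.35, 95% interval -2.17 to 4.08, adjusted p 0.871 in limma).

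Csn1s1, the alpha-s1-casein that helps other caseins leave the endoplasmic reticulum, had 11.02, 10.14 and 8.78 in Sox9 KO and 6.63, 10.69 and 10.74 in WT. Again WT replicate 1 was the only array below background, and Sox9 KO replicate 1 was the highest. WT replicate 3 was at least 4.47-fold higher than WT replicate 1, and its SD in WT was 1.23 with signals raised to the background limit, with 11 probe sets above it. The genotype difference was 0.63 (SE 1.09, 95% interval -1.91 to 3.16, adjusted p 0.900 in limma). Inside Sox9 KO these 3 caseins kept one order, replicate 1 above replicate 2 above replicate 3, with ranges of 2.11 for Csn2, 2.09 for Csn1s2a and 2.24 for Csn1s1.

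The direction of these 3 differences rested on WT replicate 1. Without it, the differences were -0.67 for Csn2, -0.79 for Csn1s2a and -0.74 for Csn1s1, with adjusted p of 0.845, 0.805 and 0.815 in limma. Without WT replicate 3, which was high for all 3, they were 2.81, 2.02 and 1.32. With signals raised to the background limit, they were 0.48, 0.60 and -0.023. WT replicate 1 also had the highest mean of the endothelial markers, 5.88 against 4.48 to 5.58 in Sox9 KO and 4.69 to 4.81 in the other WT arrays, all 5 measured markers being below background on every array. Its adipocyte markers averaged 5.62, against 4.89 to 5.41 in Sox9 KO and 5.09 to 5.31 in the other WT arrays, with 5 of 6 below background on every array. The remaining one, Fabp4, was 10.91 in WT replicate 1, against 7.21, 8.15 and 10.11 in Sox9 KO and 7.47 and 9.20 in the other WT arrays. The other adipocyte markers did not rise together there. Among WT, replicate 1 was lowest for Lep and Car3, highest for Adipoq and Plin1, and in between for Cidec. The fibroblast markers of WT replicate 1 averaged 6.37, against 5.63 to 7.63 in Sox9 KO and 5.68 to 5.77 in the other WT arrays. Dcn was 9.60 in WT replicate 1, above background, and 7.72 and 7.73 in the other WT arrays. The part of these cells in the casein values was not tested. Elf5, which marks alveolar progenitors, was 9.17, 9.04 and 8.52 in Sox9 KO and 8.49, 9.07 and 9.15 in WT, also lowest among WT in replicate 1 and just below background there.

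Csn3 encodes kappa-casein, which coats the micelle and keeps it in solution. Its signal was 11.52, 11.07 and 12.08 in Sox9 KO and 12.04, 12.32 and 12.39 in WT. Unlike the 3 caseins above it was well above background in WT replicate 1, although that was its lowest WT value. Its range over the WT animals was 0.35, where that of Csn2 was 3.91 with signals raised to the background limit. Sox9 KO replicate 3 lay just above the lowest WT value, so the genotypes overlapped by that 1 animal. The means were 11.56 ± 0.51 in Sox9 KO and 12.25 ± 0.19 in WT (SD, n = 3 each), and the difference of -0.69 (SE 0.25, 95% interval -1.28 to -0.11) did not pass (adjusted p 0.464 in limma). With the methods' t-test in place of limma, Csn3 no longer reached an unadjusted p under 0.05, and 0 of the 10 genes did.

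Csn1s2b, the second alpha-s2-like casein, was below background on all 6 arrays, between 4.84 and 5.50 in Sox9 KO and between 4.48 and 5.08 in WT, so its signal could not be separated from background. Its difference was 0.34 (SE 0.22, adjusted p 0.686 in limma).

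Lalba encodes alpha-lactalbumin, which turns the galactosyltransferase B4GALT1 into lactose synthase. It had 8.50, 10.27 and 11.40 in Sox9 KO and 9.74, 12.15 and 13.11 in WT. The lowest animal was Sox9 KO replicate 1, the one with the highest Csn1s1, Csn1s2a and Csn2, and the highest was WT replicate 3. All 6 values were above background and the genotypes overlapped through WT replicate 1. Lalba had the largest SD of the 10 genes inside Sox9 KO, 1.46, and an SD of 1.74 in WT, and its difference of -1.61 (SE 0.95, 95% interval -3.82 to 0.60) had an adjusted p of 0.653 in limma.

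Proliferation genes were also apart in that Sox9 KO animal. The 7 measured proliferation genes averaged 10.08, 7.76 and 6.70 in Sox9 KO and 7.32, 6.21 and 6.18 in WT, so that Sox9 KO replicate 1, low in Lalba and high in Csn2, stood above the rest. WT replicate 3, highest in Lalba and Wap, had the highest mean of the 7 measured ER-positive luminal markers, 7.43 against 5.88 to 6.09 in Sox9 KO and 5.98 to 6.07 in the other WT arrays. There Foxa1 was 8.35 and Cited1 10, while Esr1 stayed below background at 6.35. The part of cycling or ER-positive cells in the Lalba and casein values was not tested.

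Wap, the whey acidic protein, had 8.72, 8.0 and 7.44 in Sox9 KO and 7.57, 8.08 and 9.33 in WT. It was above background only in Sox9 KO replicate 1 and WT replicate 3, and the genotypes overlapped throughout. Inside each genotype its order of animals was that of Csn1s1, Csn1s2a and Csn2. The difference was -0.27 (SE 0.48, 95% interval -1.38 to 0.83, adjusted p 0.900 in limma), and it was 0.23 without WT replicate 3 and 0.03 without Sox9 KO replicate 3.

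Btn1a1 encodes butyrophilin, a membrane protein of the milk fat globule, and Xdh encodes xanthine oxidoreductase, its partner in enveloping the fat droplet. Btn1a1 had 7.22, 7.57 and 8.36 in Sox9 KO and 7.75, 9.07 and 8.78 in WT, above background in 1 of 3 Sox9 KO and 2 of 3 WT arrays. Xdh had 10.51, 11.52 and 11.45 in Sox9 KO and 11.29, 11.73 and 11.83 in WT, above background on every array. Both were lowest in Sox9 KO replicate 1, as Lalba was, and the lowest WT animal was replicate 1 for both. The differences were -0.82 (SE 0.39, 95% interval -1.73 to 0.10, adjusted p 0.584) for Btn1a1 and -0.46 (SE 0.29, 95% interval -1.13 to 0.21, adjusted p 0.674) for Xdh in limma.

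Glycam1 encodes a mucin-like glycoprotein of milk that is also an L-selectin ligand of high endothelial venules in lymph nodes. It was below background on every array, at 4.71 to 5.98 in Sox9 KO and 5.09 to 5.73 in WT, with a difference of 0.05 (SE 0.32, adjusted p 0.979 in limma). The 4 measured markers of high endothelial venules were below background on every array too.

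**Figure D2:**
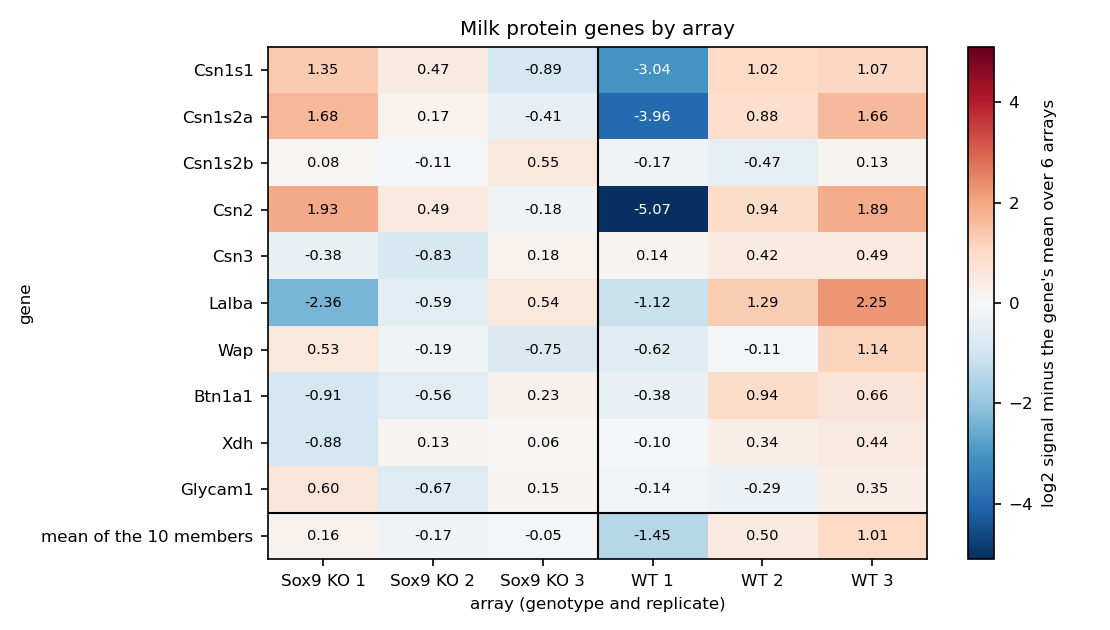
Log2 signal of each gene minus its own mean over the 6 arrays, with the genes as rows, their mean in the last row, and Sox9 KO left of WT. The deviation of Csn2 reaches -5.07 in WT replicate 1 and that of Lalba -2.36 in Sox9 KO replicate 1, where Csn2 is at 1.93.

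Set on their own means, the genes showed no single order of the animals over both genotypes, because their orders differed inside Sox9 KO. Inside WT, replicate 1 was the lowest animal for all genes but Csn1s2b and Glycam1, which were below background on every array. Replicate 3 was the highest WT animal for all genes but Btn1a1. In Sox9 KO replicate 1, Csn2, Csn1s2a and Csn1s1 stood 1.93, 1.68 and 1.35 above their means, whereas Lalba, Btn1a1 and Xdh stood at -2.36, -0.91 and -0.88. That animal was the highest of the 6 for 4 of the genes and the lowest for 3. Over all 6 animals, WT replicate 3 was the highest for 4 genes and the lowest for 0, and WT replicate 1 the lowest for 3 and the highest for 0. Averaged over the 10 genes, the deviation was 0.16, -0.17 and -0.05 in Sox9 KO replicates 1 to 3, against -1.45, 0.50 and 1.01 in WT replicates 1 to 3. The number of the 10 genes above background was 7, 6 and 7 in Sox9 KO and 3, 7 and 8 in WT, and Csn3, Lalba and Xdh were above it on all 6 arrays.

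**Figure D3:**
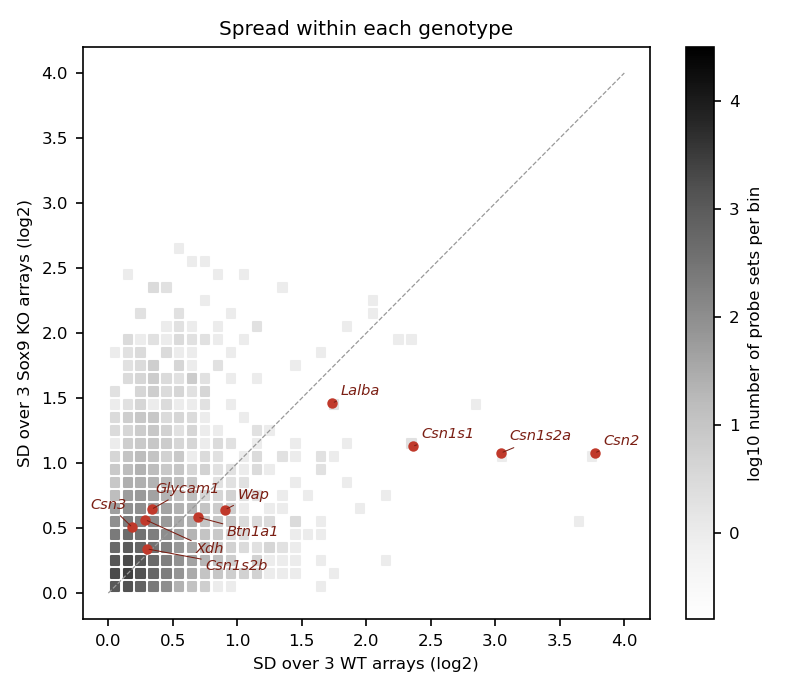
SD over the 3 WT arrays (x axis) against SD over the 3 Sox9 KO arrays (y axis) in log2 units, with all 22206 probe sets as grey bins shaded by their number and the milk protein genes in red, and the dashed line marking equal SD. Csn2, Csn1s2a, Csn1s1 and Lalba lie far to the right on the deposited values, those of the 3 caseins including a WT signal below background (Csn2 has an SD of 3.77 as deposited and 2.04 with signals raised to the background limit).

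The spread inside a genotype was wide for most of these genes. A range over 1 log2 unit among the 3 animals was seen for 9 of the 10 genes in Sox9 KO, against 7.81% of all probe sets, and for 6 of 10 in WT, against 3.93% of all probe sets. With signals raised to the background limit the counts were 6 of 10 in Sox9 KO, against 1.45% of all probe sets, and 4 of 10 in WT, against 0.653%. Among the 6 in Sox9 KO, Csn3 and Xdh had a range of 1.01, just over the threshold. In Sox9 KO, 5346 of 22206 probe sets had an SD above 0 at that setting. The shares over all probe sets thus include many that could not pass, and are no like-for-like background for genes with a signal. The 4 in WT were Csn1s1, Csn1s2a, Csn2 and Lalba, with ranges of 2.16, 4.55, 3.91 and 3.37. At that setting 3 probe sets had a larger SD than Lalba in WT and 15 in Sox9 KO, and 48 had a larger SD than Csn2 in Sox9 KO. Whether the spread itself differs between the genotypes was not tested.

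**Figure D4:**
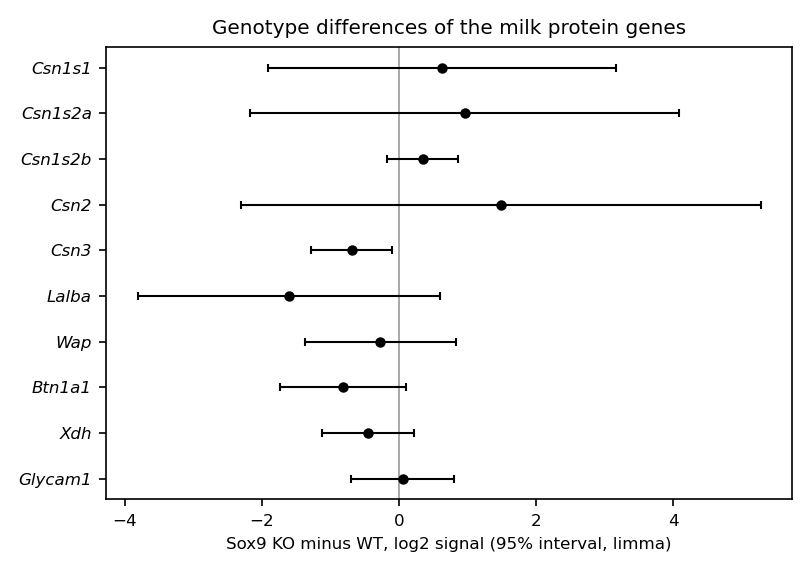
Genotype difference of each milk protein gene, Sox9 KO minus WT in log2 signal (x axis), with the 95% interval of the limma fit as the bar. Csn3 alone has an interval that leaves out 0, from -1.28 to -0.11, and the widest interval is that of Csn2.

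Across the list, 5 genes were lower and 5 higher in Sox9 KO, and their median difference was -0.11 beside 0.01 over all probe sets tested. Csn1s2b and Glycam1, counted as higher, were below background on every array. With signals raised to the background limit, the median of the 8 genes with a signal above it was -0.22. For 0 of the 10 did the genotypes not overlap, against 14.1% of all probe sets. The intervals bound what could be missed, since a lower signal of 3.82 for Lalba and a higher one of 5.28 for Csn2 both lie at the edge of their intervals. Basal markers averaged 6.96, 7.33 and 7.25 in Sox9 KO and 6.79, 6.10 and 6.61 in WT, higher in every Sox9 KO animal, with 5 of 8 below background on all arrays. Krt14 was 11.08, 10.85 and 10.63 in Sox9 KO and 8.59, 7.30 and 8.95 in WT, and Trp63 was 8.76, 8.74 and 8.27 in Sox9 KO and 7.33, 5.72 and 6.74 in WT. Krt14 and Trp63 were the 2 of the 8 that did not overlap between the genotypes, against 14.1% of all probe sets. Their differences were 2.57 (SE 0.39, adjusted p 0.196) for Krt14 and 1.99 (SE 0.38, adjusted p 0.199) for Trp63 in limma. The other basal markers overlapped, with differences between -0.06 for Mylk and 0.54 for Oxtr. The part of basal cells or basal transcripts in the milk gene differences was not tested. The balance of directions shifted with WT replicate 1. Without it, 9 genes were lower and 1 higher in Sox9 KO, and the median difference was -0.70. The 9 included Glycam1 at -0.003 and the 1 was Csn1s2b, both below background. Csn3, Lalba, Btn1a1 and Xdh lay lower in all Sox9 KO animals than in both other WT animals, as did 12.4% of all probe sets. Under that setting 3 genes (Csn3, Lalba and Btn1a1) reached an unadjusted p under 0.05, as did 7.85% of all probe sets, and 0 an adjusted one, the smallest adjusted p being 0.494 in limma. Without WT replicate 3 the balance was 4 lower and 6 higher, with a median of 0.24.

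**Figure D5:**
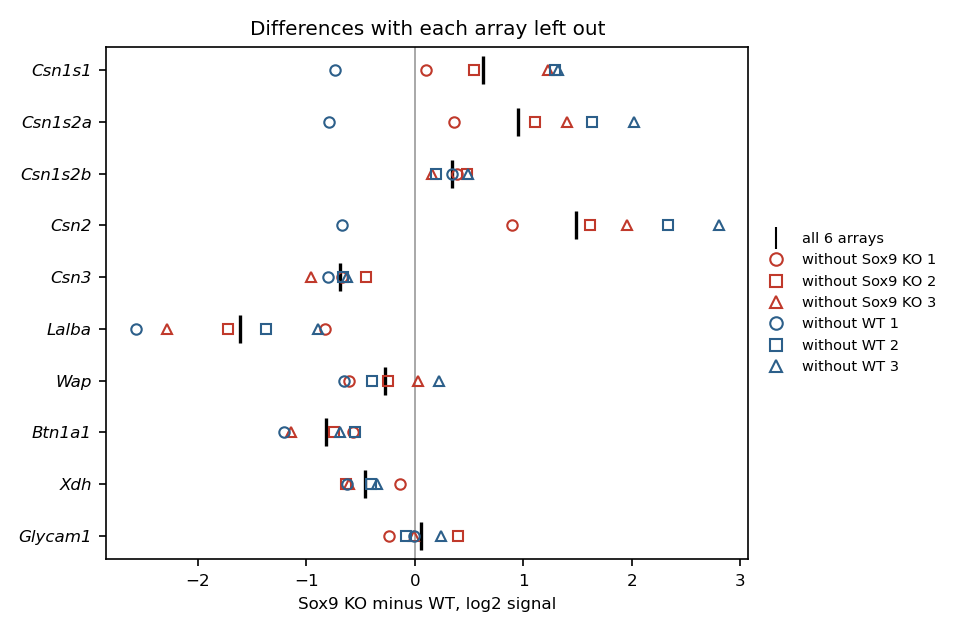
Genotype difference of each gene, Sox9 KO minus WT in log2 signal (x axis), over all 6 arrays (black bar) and with each array left out (open markers, red for Sox9 KO and blue for WT). Csn1s1, Csn1s2a and Csn2 cross 0 without WT replicate 1 alone, to -0.74, -0.79 and -0.67.

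Other genes of milk secretion were described by 16 measured genes of lactose synthesis and the milk fat globule. Of these, 12 were lower and 4 higher in Sox9 KO, where 48.3% of all probe sets were lower. Background was not exceeded on any array by 4 of them, Slc35a2 and Cd36 among the lower and Olah and Thrsp among the higher. Lao1 and Fabp3, counted as lower, were above background only in WT replicate 3, at 9.91 and 9.38. Of the 16, 0 passed the adjusted threshold and 4, all lower, reached an unadjusted p under 0.05, against 9.26% of all probe sets. The median difference was -0.37, beside 0.01 over all probe sets. Those 4 were Slc2a1, the glucose transporter GLUT1 (-0.61, SE 0.15, adjusted p 0.297), B4galt1, the galactosyltransferase of lactose synthase (-0.53, SE 0.17, adjusted p 0.416), the mucin Muc1 (-0.69, SE 0.27, adjusted p 0.484) and the fat globule protein Mfge8 (-0.58, SE 0.25, adjusted p 0.535), all in limma. Slc2a1 was 12.35, 12.42 and 12.73 in Sox9 KO against 13.20, 13.13 and 12.99 in WT, and it and B4galt1 were the 2 of the 16 that did not overlap between the genotypes, against 14.1% of all probe sets.

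Of 14 measured regulators of milk protein genes, 6 were lower and 8 higher in Sox9 KO, with a median of 0.01, 0 past the adjusted threshold and 2, both lower, at an unadjusted p under 0.05, against 9.26% of all probe sets. These were Jak2, the kinase of the prolactin receptor (-0.70, SE 0.16, adjusted p 0.256), and Cish, a feedback inhibitor that STAT5 induces (-0.62, SE 0.26, adjusted p 0.520). The next were Xbp1, a factor of the secretory pathway (0.27, SE 0.14, adjusted p 0.596), and Id2, needed for alveolar growth in the mouse (0.29, SE 0.16, adjusted p 0.621). Stat5a was 8.67, 8.77 and 8.35 in Sox9 KO and 8.70, 8.32 and 8.48 in WT, so it was not low in WT replicate 1, where Csn2 was.

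The 5 genes with the profile closest to the mean deviation of the 10 were Glrx, Folr1, Slitrk4, Lpo and P3h2, by root mean square distance over the 6 arrays among 19495 other genes, with distances of 0.225 to 0.317 log2 units. Folr1, a folate receptor, was 8.40, 7.64 and 8.44 in Sox9 KO and 7.05, 8.44 and 9.21 in WT. Lpo, the lactoperoxidase of milk, was 6.19, 5.54 and 5.41 in Sox9 KO and 4.97, 6.18 and 6.62 in WT, below background throughout, as were Glrx and Slitrk4. All 5 were lowest in WT replicate 1 and highest in WT replicate 3, and since they were picked for this profile it is given as a description.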

How the data were processed

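Total RNA was hybridised to Affymetrix Clariom S Pico mouse arrays. The authors used Expression Console and Transcriptome Analysis Console and deposited log2 signals (array medians 6.12 to 6.21, from which the scale was inferred), and the normalization is not given in the sources used here. The 6640 array controls among 28846 probe sets were left out, 5222 of them serving as negative controls. Gene symbols, updated against RefSeq (GRCm38.p6), named 19572 of 22206 probe sets. The fit was limma 3.58.1 in R 4.3.3 (two-sided, no covariates) and was tested on simulated data. Named genes are the 10 members, Sox9, up to 4 of each described list by smallest p, the 5 closest profiles and the casein neighbours. Esr1, Foxa1, Cited1, Fabp4, Elf5, Stat5a, Dcn, Dpt, Col1a1, Krt14 and Trp63 were named after their values were seen. The members and lists were chosen with earlier results of these data known. Alternatives comprised 2 other normalizations, a filter on dim probe sets, other variance models and array weights, a replicate block, the methods' t-test, a stricter background limit and leaving out each array. The number of arrays, 3 per genotype, limits the precision.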

Additional observations from a re-analysis of the deposited data

How the results depend on the processing

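Over all alternatives, 0 of the 10 milk protein genes passed the adjusted threshold. The count of all probe sets past it, 2, was 0 with the replicate block, 0 with the methods' t-test and 0 to 20 with 1 array left out. Same-numbered arrays deviated from their group means with correlations of 0.12, -0.03 and 0.03, so the numbers were not taken to pair the animals. With 1 array of each genotype per number, the replicate block can change the error of a difference but not its size or sign. Glycam1, below background, was at -0.084 with array weights. With 1 array left out, the differences ran from -0.74 to 1.32 for Csn1s1, -0.79 to 2.02 for Csn1s2a, -0.67 to 2.81 for Csn2, -0.65 to 0.23 for Wap and -0.23 to 0.40 for Glycam1, and from 0.15 to 0.49 for Csn1s2b, -0.95 to -0.45 for Csn3, -2.57 to -0.83 for Lalba, -1.21 to -0.55 for Btn1a1 and -0.64 to -0.13 for Xdh. Of the 10 genes, 0 to 4 had no overlap in these settings, where 20.7% to 29.1% of all probe sets had none. The cause was not tested. With signals below background raised to its limit, a setting chosen after seeing the data, Csn1s1 was at -0.023, Csn1s2a at 0.60, Csn2 at 0.48 and Btn1a1 at -0.23. Directions of Csn1s2b, Csn3, Lalba, Btn1a1 and Xdh were kept under every alternative that could change a difference and gave them a value. These were the other normalizations, array weights, raised signals and leaving out each array. The filter on dim probe sets, the other variance models, the replicate block and the methods' t-test leave the size of a difference unchanged. The filter on dim probe sets left out Csn1s2b, Btn1a1 and Glycam1. Above the 99th percentile of the negative controls, 2 genes were measured on all arrays, where 3 were above the 95th. Low signals are compressed on arrays, so differences of Wap and Btn1a1 may be understated. Those of Csn1s2b and Glycam1, below background on every array, could not be separated from background.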

Other observations

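The casein genes lie together on mouse chromosome 5, in the order Csn1s1, Csn2, Csn1s2a, Csn1s2b and, beyond Prr27 and Odam, Csn3 in RefSeq. The neighbours measured on either side and in between (Sult1b1, Sult1d1, Sult1e1, Prr27, Odam, Cabs1, Smr3a and Smr2) were below background on all 6 arrays. Odam, an ameloblast-associated protein, was 6.56, 6.21 and 6.70 in Sox9 KO and 6.45, 6.79 and 6.64 in WT, lowest among WT in replicate 1. Being below background, its signal there could not be separated from background. Adjusted p of these neighbours was 0.653 for Smr2, the smallest, to 0.959 for Prr27 in limma. Within the cluster, low values in WT replicate 1 were measured for Csn1s1, Csn2 and Csn1s2a, at 6.63, 5.54 and 7.51, while Csn3 was 12.04 there.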
